A study of Mus musculus with 16 samples.

Results

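S100 proteins are small calcium-binding proteins, and the 10 S100 genes described here were chosen by the symbols *S100a1*, *S100a4*, *S100a6*, *S100a8*, *S100a9*, *S100a10*, *S100a11*, *S100a13*, *S100a16* and *S100b*. They were 10 of the 18167 genes measured, and all 10 listed symbols were found. RNA-Seq was performed on bulk spinal cord of 16 transgenic mice labelled male, in a mouse model of amyotrophic lateral sclerosis (ALS) that compares a disease-linked form of human profilin1, an actin-binding protein, with the unchanged human protein. Every mouse carried a human profilin1 transgene on a C57BL/6N background, driven by the mouse prion promoter, and each genotype came from a single transgenic line. No mice without a transgene were part of the series analysed here.

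The mutant transgene was hPFN1 G118V and that of wild-type mice was unchanged hPFN1. Mutant young mice (MY, n = 3) and wild-type young mice (WY, n = 3) were 50 days old, before symptoms in MY. Mutant old mice (MO, n = 5) were at the end stage of disease at 175 to 245 days of age. Wild-type old mice (WO, n = 5) were 190 to 294 days old. WY and MY libraries all belonged to library batch 1, and MO and WO each had 3 mice in batch 1 and 2 in batch 2 (MO4, MO5, WO4 and WO5). WO4 and WO5 were both 294 days old, older than any MO mouse. Values are log2(1 + FPKM), where FPKM is fragments scaled to transcript length and to the size of the library, after the authors' adjustment for batch. A gene was called differentially expressed at a false discovery rate (FDR) of at most 0.05 together with a fold change of at least 1.5, and every log2 fold change is the second group minus the first on the log2(1 + FPKM) scale, which understates the change of genes with low FPKM.

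The library of MO5 did not match its label. *Xist*, which is transcribed from the inactive X chromosome of females, was at 3.21 in MO5 and at most at 0.37 in the other 15 mice. The Y-linked gene *Ddx3y* was at 1.95 in MO5, against 4.06 or more elsewhere. Log2 fold changes of the 10 S100 genes in MY vs. MO and WO vs. MO are therefore also given without MO5, and those of other genes are given with it.

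An S100 protein holds a pair of calcium-binding EF-hand loops and usually works as a dimer. Calcium opens a surface through which the dimer binds partner proteins such as annexins, myosin and cytoskeletal regulators, and several S100 proteins are also released from cells and bind receptors such as RAGE and Toll-like receptor 4. In the central nervous system *S100b* is best known as a gene of astrocytes and other glia, *S100a6* and *S100a4* are expressed in subsets of astrocytes, and *S100a8* and *S100a9* encode calprotectin, the abundant protein pair of neutrophils and monocytes.

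In WY, the members ranged from *S100b* with a mean FPKM of 720 ± 71.3 (SD, n = 3) to *S100a8* with 0.418 ± 0.325. Between these came *S100a1* (mean FPKM 197), *S100a16* (123), *S100a10* (87.6), *S100a6* (51.9), *S100a13* (49.0), *S100a11* (17.9), *S100a4* (5.94) and *S100a9* (1.05). Of the neighbours in this order, only *S100a6* and *S100a13* had overlapping ranges in WY. *S100b* was also the highest and *S100a1* the next in MY, WO and MO, without overlap between them. In MO the third place went to *S100a6* with a mean FPKM of 178 ± 30.9 (SD, n = 5), followed by *S100a10* (162), *S100a16* (128), *S100a13* (70.7), *S100a11* (57.6) and *S100a4* (42.1). Each of these overlapped its neighbour in MO, while *S100a8* (2.07) and *S100a9* (1.82) stood far lower. Relative to all 18167 genes, the mean log2(1 + FPKM) over the 16 mice lay at percentile 99.7 for *S100b*, 98.3 for *S100a1* and 59.6 for *S100a4*, and at 32.3 for *S100a8*.

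Summed over the 10 genes, FPKM reached a mean of 1254 (SD 116) over the 3 WY mice, 1172 (SD 33.3) over the 3 MY mice, 1133 (SD 45.5) over the 5 WO mice and 1547 (SD 186) over the 5 MO mice. The lowest MO mouse (1293) fell below the highest WY mouse (1377). *S100b* made up 57.4% of the sum in WY, 58.9% in MY, 58.1% in WO and 37.0% in MO. Without *S100b*, the sum ran from 816 to 1184 FPKM in MO, and no mouse of the other groups exceeded 576.

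Between MY and MO, 6 of the 10 members were called higher in MO, where 4.11% of all genes were, and 0 were called lower, where 0.787% of all genes were. Between WO and MO, 6 were called higher against 4.08% of all genes, and 0 lower against 0.517%. The 6 genes were *S100a1*, *S100a4*, *S100a6*, *S100a10*, *S100a11* and *S100a13* in both comparisons, which share the MO mice. In the limma fits the unadjusted P was below 0.05 for 7 members in MY vs. MO and for 8 in WO vs. MO, and for 6673 and 6986 of the 18167 genes. The median log2 fold change of the 10 members was 0.81 in MY vs. MO and 0.76 in WO vs. MO, against medians of 0.0047 and 0.00035 over all genes. In the same 6 genes all 5 MO mice lay above all 11 other mice, an order found in 7.58% of all genes. Without MO5 the same 6 genes were called in both comparisons.

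**Figure D1:**
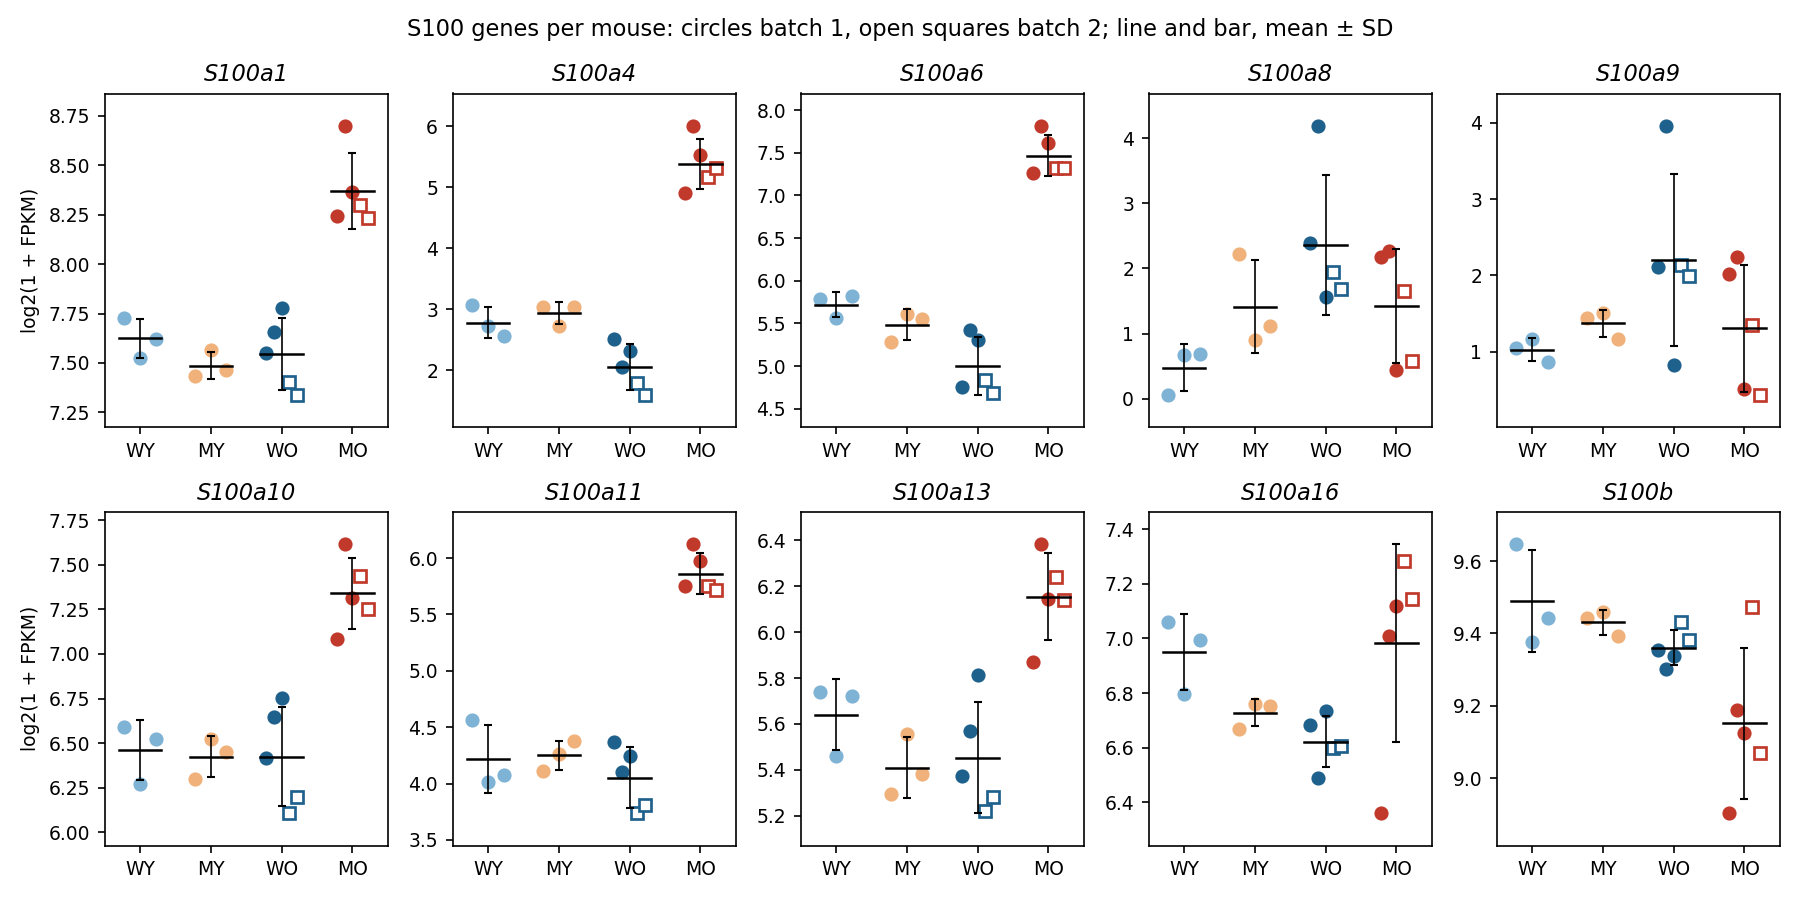
Level of each S100 gene in each of the 16 mice as log2(1 + FPKM), by group, with filled circles for batch 1, open squares for batch 2, and the group mean and SD as line and bar. In 6 genes the 5 MO mice sit above all 11 other mice, whereas the highest *S100a8* and *S100a9* values belong to the mouse WO2.

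*S100a4* encodes a protein that binds non-muscle myosin and is known from motile cells, fibroblasts and white matter astrocytes. Its values were 3.06, 2.72 and 2.56 in WY1 to WY3 and 3.04, 2.72 and 3.04 in MY1 to MY3. In WO1 to WO5 they were 2.51, 2.05, 2.31, 1.79 and 1.59, and in MO1 to MO5 they were 4.90, 6.00, 5.52, 5.17 and 5.31. Every MO mouse was thus above every other mouse by a wide gap, and every WO mouse was below every young mouse. Its log2 fold change was 2.44 in MY vs. MO (95% CI 1.94 to 2.95, FDR = 0.000317) and 3.33 in WO vs. MO (95% CI 2.84 to 3.82, FDR = 1.46e-05). It ranked 33rd among the 18167 log2 fold changes of MY vs. MO and 8th in WO vs. MO. On the linear scale, mean FPKM was 5.94 in WY, 6.69 in MY, 3.25 in WO and 42.1 in MO.

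*S100a6*, or calcyclin, encodes a binding partner of annexins and of the calcyclin-binding protein. Its values were 5.78, 5.56 and 5.82 in WY1 to WY3, and 5.28, 5.62 and 5.56 in MY1 to MY3. They were 4.75, 5.42, 5.30, 4.84 and 4.69 in WO1 to WO5, and 7.26, 7.82, 7.61, 7.32 and 7.32 in MO1 to MO5. As with *S100a4*, the MO mice stood apart above, and the WO mice were the lowest group, although WO2 and WO3 overlapped MY1. The log2 fold change was 1.98 in MY vs. MO (95% CI 1.66 to 2.30, FDR = 0.000203) and 2.47 in WO vs. MO (95% CI 2.10 to 2.83, FDR = 1.46e-05).

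*S100a10*, also called p11, differs from other S100 proteins in that it no longer binds calcium, and it is held in a complex with annexin A2 that carries channels and receptors to the cell membrane. Its values in WY1 to WY3 were 6.59, 6.27 and 6.52, and in MY1 to MY3 they were 6.30, 6.52 and 6.45. WO1 to WO5 had 6.41, 6.64, 6.75, 6.11 and 6.20, and MO1 to MO5 had 7.08, 7.61, 7.31, 7.44 and 7.25. The lowest MO mouse was above the highest other mouse, WO3, and the WO mice of batch 2 were below all other mice. Its log2 fold change was 0.92 in MY vs. MO (95% CI 0.66 to 1.17, FDR = 0.00094) and 0.92 in WO vs. MO (95% CI 0.61 to 1.22, FDR = 0.000677).

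*S100a11* encodes a partner of annexin A1. It was measured at 4.56, 4.02 and 4.08 in WY1 to WY3, and at 4.11, 4.26 and 4.38 in MY1 to MY3. In WO1 to WO5 the values were 4.37, 4.10, 4.24, 3.74 and 3.81, and in MO1 to MO5 they were 5.75, 6.12, 5.98, 5.75 and 5.71. The WY, MY and WO mice overlapped, and all MO mice were higher. The log2 fold change was 1.61 in MY vs. MO (95% CI 1.37 to 1.85, FDR = 0.000203) and 1.81 in WO vs. MO (95% CI 1.52 to 2.10, FDR = 2.16e-05).

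Of 5 annexins known to bind S100 proteins, 1 was called higher in MO in each comparison and 0 lower. This was *Anxa2*, the partner of *S100a10*, which rose by 0.76 (SE 0.07, FDR = 0.000292) from MY to MO and by 0.80 (SE 0.08, FDR = 8.12e-05) from WO to MO. *Anxa5*, the most abundant of the 5, differed by 0.32 and 0.38 and did not reach the fold change threshold. Among 13 intracellular partners, 1 was called higher in both comparisons and 0 lower. It was *Ahnak*, a large scaffold protein that binds the complex of *S100a10* and annexin A2, with log2 fold changes of 0.99 (SE 0.12, FDR = 0.00085) and 0.86 (SE 0.13, FDR = 0.00074). Of 5 channels and receptors that bind *S100a10*, 0 were called in either comparison by limma, and the most abundant of them, *Asic1*, had log2 fold changes of -0.44 and -0.48 (FDR = 0.00464 and 0.000457), below the fold change threshold.

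*S100a1* is best known for its control of calcium handling in heart and skeletal muscle and is also expressed in glia and neurons. Its values were 7.73, 7.53 and 7.62 in WY1 to WY3, and 7.43, 7.57 and 7.46 in MY1 to MY3. WO1 to WO5 had 7.55, 7.66, 7.78, 7.40 and 7.34, and MO1 to MO5 had 8.24, 8.70, 8.37, 8.30 and 8.24. The 11 mice of the other groups overlapped, and the MO mice were above them with MO2 far ahead. Its log2 fold change was 0.88 in MY vs. MO (95% CI 0.64 to 1.12, FDR = 0.000801) and 0.82 in WO vs. MO (95% CI 0.59 to 1.06, FDR = 0.000291).

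*S100a13* encodes a protein that takes part in the export of fibroblast growth factor 1 and interleukin 1 alpha from cells. Its values were 5.74, 5.46 and 5.72 in WY1 to WY3, and 5.29, 5.55 and 5.38 in MY1 to MY3. They were 5.37, 5.57, 5.81, 5.22 and 5.28 in WO1 to WO5, and 5.87, 6.38, 6.15, 6.24 and 6.14 in MO1 to MO5. The gap was narrow here, with MO1 just above WO3. The log2 fold change was 0.75 in MY vs. MO (95% CI 0.49 to 1.00, FDR = 0.00204) and 0.70 in WO vs. MO (95% CI 0.43 to 0.97, FDR = 0.00177). When only batch 1 was used (3 WO and 3 MO mice), the difference was 0.55 with an FDR of 0.068 and was no longer called.

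Within batch 1 the WO vs. MO log2 fold change was 3.18 for *S100a4*, 2.40 for *S100a6*, 1.71 for *S100a11*, 0.77 for *S100a1* and 0.73 for *S100a10*, and within batch 2 it was 3.55, 2.56, 1.96, 0.90 and 1.19 for the same genes. For *S100a13* the batch 2 value was 0.94. All 6 differences were thus positive in both batches and larger in batch 2, where both WO mice were 294 days old, so batch and age cannot be told apart there. MY mice were all of batch 1. Against the 3 MO mice of batch 1 alone, the MY vs. MO values were 2.54 for *S100a4*, 2.08 for *S100a6*, 1.70 for *S100a11*, 0.95 for *S100a1*, 0.91 for *S100a10* and 0.72 for *S100a13*. Without MO5, the WO vs. MO values were 3.35, 2.50, 1.85, 0.86, 0.94 and 0.71 in the same order of genes, and the MY vs. MO values 2.46, 2.02, 1.65, 0.92, 0.94 and 0.75.

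MO2 was the highest MO mouse for all 6 called members. Leaving out MO2 lowered the WO vs. MO log2 fold changes to 3.17 for *S100a4*, 2.38 for *S100a6*, 0.85 for *S100a10*, 0.74 for *S100a1* and 0.65 for *S100a13*, and all 6 genes were still called.

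**Figure D2:**
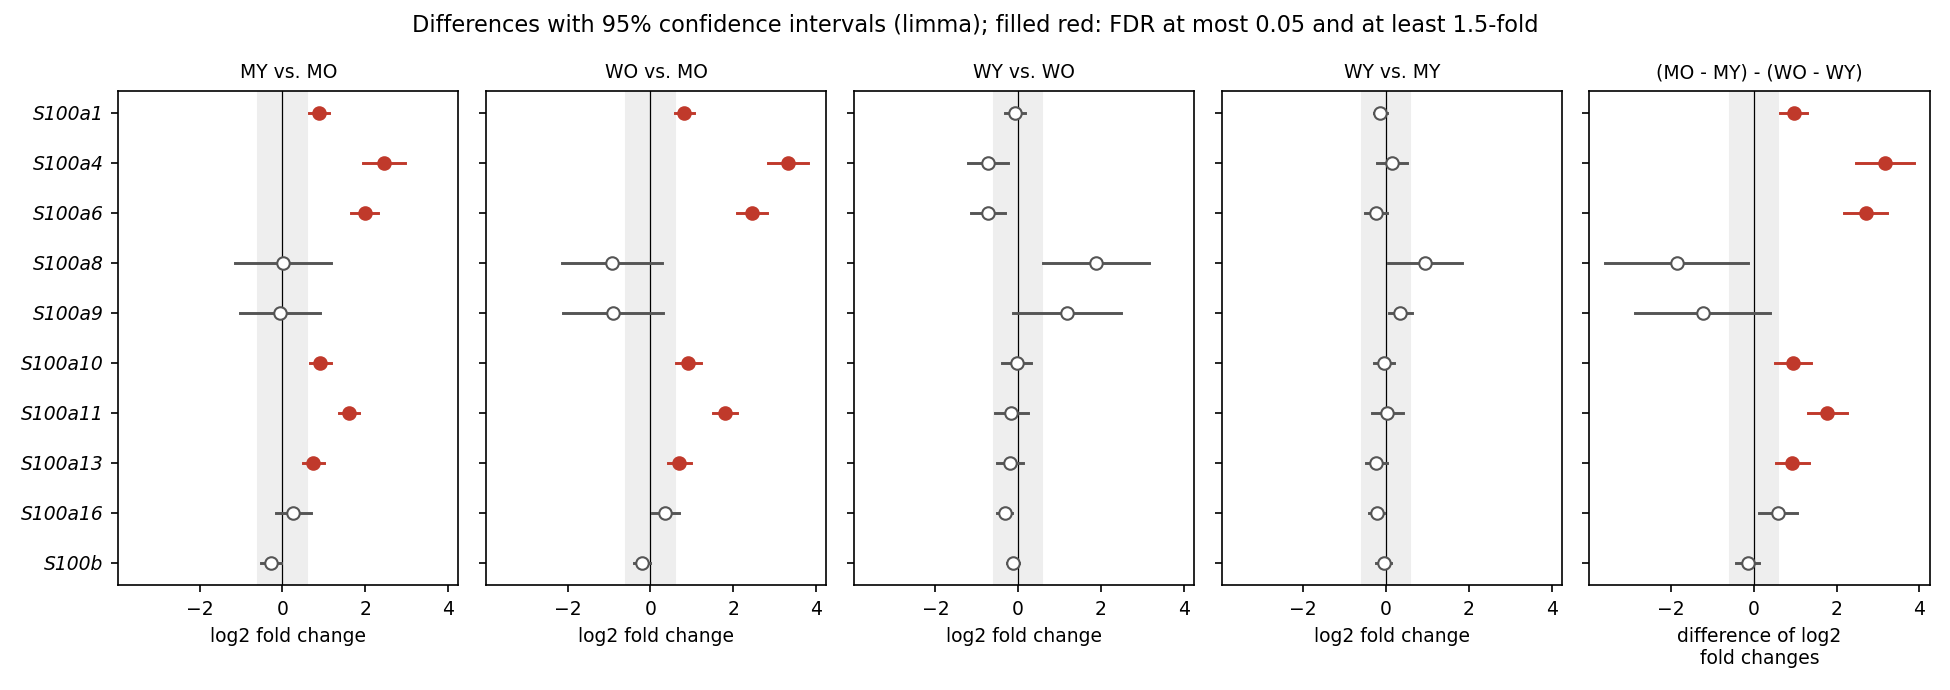
Log2 fold changes of the 10 genes (dots) with 95% confidence intervals (lines) in the 4 comparisons and in the difference between the age effects of mutant and wild-type mice, with the band under a 1.5-fold change in grey. *S100a4* has the largest value in MY vs. MO (2.44) and in WO vs. MO (3.33), and the 6 filled genes are the same in the first, second and last panel.

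*S100b* encodes the classic glial S100 protein, which also marks part of the oligodendrocyte lineage. Its values were 9.65, 9.38 and 9.44 in WY1 to WY3, and 9.44, 9.46 and 9.39 in MY1 to MY3. In WO1 to WO5 they were 9.35, 9.30, 9.34, 9.43 and 9.38, and in MO1 to MO5 they were 8.90, 9.19, 9.12, 9.47 and 9.07. The MO mice other than MO4 were below every mouse of the other groups, and MO4 was above all MY and WO mice. Its log2 fold change was -0.28 in MY vs. MO (95% CI -0.53 to -0.03, FDR = 0.1) and -0.21 in WO vs. MO (95% CI -0.40 to -0.02, FDR = 0.102), so neither was called. Without MO4 the values were -0.36 (FDR = 0.00827) and -0.29 (FDR = 0.00513), which passed the FDR and not the fold change threshold. With batch 1 only, MY vs. MO also passed the FDR alone (-0.36, FDR = 0.0196), and WO vs. MO did not (-0.26, FDR = 0.0862). Without MO5 the values were -0.26 and -0.19 (FDR = 0.168 and 0.185). Quantile normalization gave the largest differences, -0.46 (FDR = 0.00421) and -0.32 (FDR = 0.0202), still below the fold change threshold, so the size and the FDR of the *S100b* difference depended on the setting.

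*S100a16* encodes a broadly expressed S100 protein. Its values were 7.06, 6.79 and 6.99 in WY1 to WY3, and 6.67, 6.76 and 6.75 in MY1 to MY3. They were 6.68, 6.49, 6.73, 6.60 and 6.61 in WO1 to WO5, and 6.36, 7.01, 7.12, 7.29 and 7.14 in MO1 to MO5. MO1 was the lowest of the 16 mice, while the other MO mice were above every MY and WO mouse. The log2 fold change was 0.26 in MY vs. MO (95% CI -0.17 to 0.68, FDR = 0.37) and 0.36 in WO vs. MO (95% CI 0.03 to 0.69, FDR = 0.0982). Without MO1 these became 0.41 (FDR = 0.0041) and 0.52 (FDR = 0.000404), which passed the FDR and not the fold change threshold. Without MO5 they were 0.22 and 0.32 (FDR = 0.5 and 0.183). With batch 1 only they were 0.10 (FDR = 0.763) and 0.19 (FDR = 0.582), and within batch 2 WO vs. MO was 0.61 (FDR = 0.0147). MO1 was also the lowest MO mouse for *S100b*, and after subtraction of the group means the Pearson r between *S100b* and *S100a16* was 0.74 over the 16 mice.

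*S100a8* and *S100a9* form calprotectin, which is released by activated neutrophils and monocytes. *S100a8* was at 0.06, 0.68 and 0.69 in WY1 to WY3, at 2.23, 0.90 and 1.11 in MY1 to MY3, at 2.39, 4.19, 1.56, 1.95 and 1.68 in WO1 to WO5, and at 2.18, 2.27, 0.45, 1.65 and 0.57 in MO1 to MO5. *S100a9* was at 1.05, 1.16 and 0.87 in WY1 to WY3, at 1.45, 1.502 and 1.17 in MY1 to MY3, at 2.10, 3.96, 0.83, 2.14 and 1.99 in WO1 to WO5, and at 2.02, 2.24, 0.51, 1.35 and 0.44 in MO1 to MO5. Both genes peaked in WO2, both were low in MO3 and MO5, and MO overlapped MY and WO. The log2 fold change of *S100a8* was 0.01 in MY vs. MO (95% CI -1.14 to 1.17, FDR = 0.988) and -0.93 in WO vs. MO (95% CI -2.13 to 0.27, FDR = 0.242). For *S100a9* it was -0.06 (95% CI -1.03 to 0.91, FDR = 0.942) and -0.89 (95% CI -2.11 to 0.32, FDR = 0.266). Leaving out WO2 brought the WO vs. MO values to -0.47 and -0.46. Without MO5, *S100a8* had 0.23 in MY vs. MO and -0.72 in WO vs. MO. *S100a9* then had 0.16, a change of sign, and -0.68, and neither gene was called. The pair varied together, with a Pearson r of 0.90 over the 16 mice and 0.88 after subtraction of the group means.

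Of 11 neutrophil markers, 9 were measured, and *Ly6g* and *Elane* were not among the genes analysed here. The granule genes *Ngp*, *Camp* and *Retnlg* were at 1.47, 1.56 and 1.31 in WO2 and at most at 0.59, 0.73 and 0.79 in the other mice, while *Mpo* did not exceed 0.14 in any mouse. The most abundant gene of the list was *Lcn2*, which astrocytes can also express. *Lcn2* rose by 2.18 (SE 0.48, FDR = 0.0117) from MY to MO and by 2.31 (SE 0.40, FDR = 0.00158) from WO to MO, and *Csf3r* by 1.498 (SE 0.12, FDR = 0.000278) and 1.496 (SE 0.13, FDR = 2.48e-05). These were the 2 of 9 markers called higher in MO, and 0 were called lower. The summed FPKM of the 9 genes was 5.23, 4.04 and 3.78 in WY1 to WY3, 4.79, 5.68 and 4.45 in MY1 to MY3, 7.43, 9.96, 4.47, 4.78 and 5.29 in WO1 to WO5, and 44.3, 25.4, 21.5, 12.2 and 19.1 in MO1 to MO5. Of these 9 genes, only *Lcn2* and *Csf3r* had every MO mouse above every MY and WO mouse. For the others, MO overlapped MY and WO, so the higher sum in MO followed *Lcn2* and *Csf3r*. The part of neutrophils in the level of *S100a8* and *S100a9* was not tested.

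Cell surface receptors of released S100 proteins and their first adaptors made up a list of 9 genes, all measured. Of these, 2 were called higher in MY vs. MO and 1 in WO vs. MO, and 0 were called lower. *Cd14*, a co-receptor of Toll-like receptor 4 that is expressed on microglia and macrophages, rose by 1.87 (SE 0.11, FDR = 0.000203) from MY to MO and by 1.84 (SE 0.13, FDR = 2.16e-05) from WO to MO. *Tlr4* itself rose by 0.65 (SE 0.08, FDR = 0.00116) from MY to MO, and its difference of 0.50 (FDR = 0.000672) between WO and MO was below the fold change threshold. The most abundant receptor, *Bsg*, differed by 0.09 and 0.01 (FDR = 0.432 and 0.953).

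Beside the 10 members, 7 further mouse S100 genes were looked for and 4 were measured, namely *S100a3*, *S100a7a*, *S100a14* and *S100g*. These were named because they were few, after their values had been seen. All had low levels, and the highest mean FPKM in any group was 1.18 for *S100a7a* in MO. By limma, 0 of the 4 were called in any comparison, and in WO vs. MO the unadjusted P was below 0.05 for *S100a3*, *S100a7a* and *S100g*. *S100a3* (log2 fold change 0.50, FDR = 0.0203) and *S100a7a* (0.40, FDR = 0.0426) passed the FDR and not the fold change threshold, while *S100g* (-0.22, FDR = 0.101) passed neither.

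Changes with age in the absence of the mutation were examined in WY vs. WO. By limma, 0 of the 10 members were called there, where 0.253% of all genes were. An unadjusted P below 0.05 was found for 4 members and for 2447 of the 18167 genes. *S100a4* had a log2 fold change of -0.73 (95% CI -1.21 to -0.25, FDR = 0.168) and *S100a6* one of -0.72 (95% CI -1.13 to -0.31, FDR = 0.117), and for each gene every WO mouse was below every WY mouse. *S100a16* had -0.33 (95% CI -0.50 to -0.16, FDR = 0.0919), also without overlap. *S100a8* went the other way with 1.88 (95% CI 0.60 to 3.15, FDR = 0.178). With the 3 WO mice of batch 1 alone, the values were -0.49 for *S100a4*, -0.56 for *S100a6*, -0.32 for *S100a16* and 2.24 for *S100a8*. Of the 8 astrocyte markers, 1 was called in WY vs. WO, namely *Aqp4* with -0.65 (FDR = 0.0281), and *Gfap* with -0.54 (FDR = 0.0345) passed the FDR and not the fold change threshold. The oligodendrocyte genes *Cldn11* (-0.86, FDR = 0.00112) and *Mog* (-0.77, FDR = 0.0178) were also called lower in WO. By limma, 0 of the 10 microglia markers were called in this comparison, and 0 had an unadjusted P below 0.05. Whether the lower *S100a4* and *S100a6* values belong to these changes was not tested.

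Before symptoms, in WY vs. MY, 0 of the 10 members were called by limma, where 0.0055% of all genes were. The unadjusted P was below 0.05 for 3 members, and for 1301 of the 18167 genes. *S100a8* differed by 0.94 (95% CI 0.04 to 1.83, FDR = 0.689), *S100a9* by 0.34 (95% CI 0.07 to 0.62, FDR = 0.654) and *S100a16* by -0.22 (95% CI -0.41 to -0.04, FDR = 0.666). The size of the *S100a8* difference rested on MY1, without which it was 0.53 (FDR = 0.964), and on the scale, since it was 2.00 (FDR = 0.74) with a pseudocount of 0.1. The 6 genes called in MO had log2 fold changes between -0.24 (*S100a6*) and 0.15 (*S100a4*) at 50 days.

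The difference between the age effects of the genotypes, (MO - MY) - (WO - WY), was called for 6 members, where 5.61% of all genes were called in either direction. These were again *S100a1*, *S100a4*, *S100a6*, *S100a10*, *S100a11* and *S100a13*, and 8 members had an unadjusted P below 0.05, as had 5655 of the 18167 genes. The difference was 3.17 for *S100a4* (95% CI 2.47 to 3.88, FDR = 5.88e-05), 2.70 for *S100a6* (95% CI 2.18 to 3.22, FDR = 2.61e-05) and 1.78 for *S100a11* (95% CI 1.31 to 2.25, FDR = 0.000106). *S100b* had a difference of -0.15 (95% CI -0.44 to 0.13, FDR = 0.489), and *S100a8* one of -1.87 (95% CI -3.60 to -0.13, FDR = 0.13). The WO and MO mice were not of the same ages, so this is a difference between groups of old mice and not between matched days.

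In bulk spinal cord, a higher or lower number of cells of a type and more or less RNA per cell cannot be told apart. Markers of several cell types moved with the 6 called genes. Among 10 microglia markers, 9 were called higher in MY vs. MO and 8 in WO vs. MO. Their summed FPKM was 302, 267 and 294 in WY1 to WY3, 277, 300 and 285 in MY1 to MY3, 328, 323, 351, 236 and 228 in WO1 to WO5, and 1189, 1503, 1696, 984 and 1112 in MO1 to MO5. The most abundant was *C1qb*, with log2 fold changes of 2.64 (SE 0.17, FDR = 0.000203) and 2.59 (SE 0.21, FDR = 2.16e-05).

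Of 8 astrocyte markers, 2 were called higher in MY vs. MO (*Gfap* and *Aldh1l1*) and 4 in WO vs. MO (also *Aqp4* and *Sox9*). Their summed FPKM was 2462, 2370 and 2287 in WY1 to WY3, 2205, 2260 and 2205 in MY1 to MY3, 2012, 1922, 2054, 2076 and 1864 in WO1 to WO5, and 3611, 4419, 3955, 3406 and 3575 in MO1 to MO5. *Gfap* was the most abundant and rose by 1.26 (SE 0.12, FDR = 0.000317) from MY to MO and by 1.604 (SE 0.10, FDR = 1.46e-05) from WO to MO. *S100b*, itself used as an astrocyte marker, thus did not follow *Gfap*.

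After subtraction of the group means, the Pearson r with the log2 sum of the microglia markers over the 16 mice was 0.76 for *S100a11*, 0.74 for *S100a1*, 0.71 for *S100a6*, 0.69 for *S100a4*, 0.61 for *S100a10* and 0.55 for *S100a13*. With the log2 sum of the astrocyte markers it was 0.71 for *S100a4*, 0.69 for *S100a1*, 0.54 for *S100a11*, 0.50 for *S100a6*, 0.33 for *S100a10* and 0.33 for *S100a13*. For *S100b* it was -0.25 with microglia and -0.02 with astrocytes. The mice share their libraries between both measures, and what part either cell type has in the S100 levels was not tested.

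Markers of other cell types changed less often. The oligodendrocyte genes *Mog* and *Cnp* were called lower in MY vs. MO and not in WO vs. MO, and the most abundant oligodendrocyte marker was *Mbp*, which was at 5.36 in WO4 and at 12.2 or more in the other mice. *Chat*, the enzyme of acetylcholine synthesis, was the 1 of 6 motor neuron markers called lower in WO vs. MO, with -0.67 (SE 0.06, FDR = 3.13e-05). Of 7 monocyte and border macrophage markers, 1 was called higher in both comparisons, *Ms4a7*, with 1.73 (SE 0.36, FDR = 0.00923) and 1.90 (SE 0.28, FDR = 0.000706). Among 8 neuron markers 1 was called lower in both comparisons (*Slc6a5*), of 7 muscle markers 1 was called higher in both (*Tnni2*), and of 5 ependymal markers 1 was called higher in WO vs. MO (*Rarres2*). By limma, 0 of 7 fibroblast, 0 of 6 endothelial, 0 of 6 measured sensory neuron and 0 of 7 measured red blood cell markers were called in either comparison.

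Of the members, 9 lie on chromosome 3 (positions from GENCODE M21 on GRCm38). A first block of 184688 bases, chr3:90511034-90695721, holds in this order *S100a1*, *S100a13*, *S100a16*, *S100a4*, *S100a6*, *S100a8* and *S100a9*. The second block, chr3:93520488-93564643, holds *S100a11* and *S100a10*. *S100b* lies apart on chromosome 10 (chr10:76253853-76261159, + strand), where its model overlaps that of *Dip2a* on the opposite strand, and whether strand was used in quantification was not stated. The model of *S100a4* (chr3:90603771-90606045, + strand) overlaps that of *Gm42674* on the same strand, and whether their exons overlap was not tested.

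Neighbours in the first block did not behave alike. *S100a16*, which was not called, lies between *S100a13* and *S100a4*, which were, and *S100a8* and *S100a9* close the block after *S100a6* and *S100a7a*. The 3 other genes of the table inside this block were not called in MY vs. MO or WO vs. MO. Within 100000 bases outside the blocks, 6 genes were measured, and 0 of them were called in these comparisons by limma. The nearest, *Chtop*, lies beside *S100a1* and had log2 fold changes of -0.07 and 0.0001. In the whole interval from *S100a1* to *S100a10*, 1 of 8 genes that are not members was called higher in both comparisons, *Sprr1a*, a keratinocyte gene also known from injured neurons (3.56 and 4.06, FDR = 0.000203 and 1.46e-05).

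**Figure D3:**
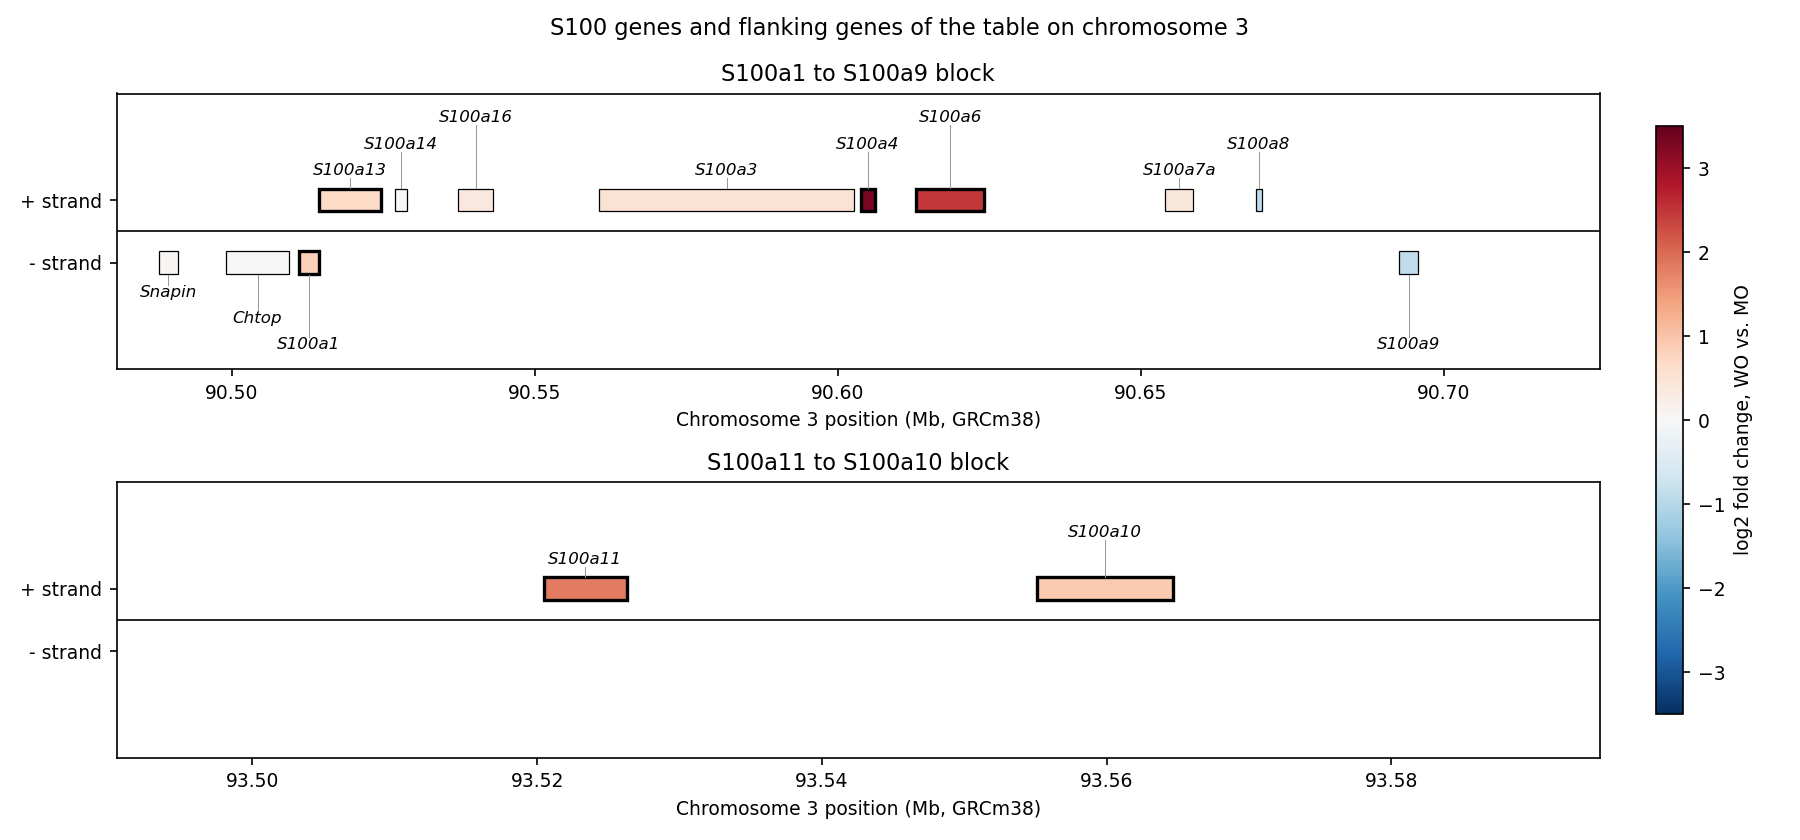
Map of both S100 blocks on mouse chromosome 3 (GRCm38), with each gene model drawn to scale within its panel on its strand and coloured by the log2 fold change of WO vs. MO; thick outlines mark called S100 genes. *S100a4* (3.33) and *S100a6* (2.47) stand side by side, whereas *S100a16* (0.36) lies between called genes.

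*S100a1* and *S100a13*, which were called together, start head to head on opposite strands. The model of *S100a1* (chr3:90511034-90514392, - strand) and that of *S100a13* (chr3:90514435-90524581, + strand) are 42 bases apart. The stretch between them, chr3:90514393-90514434, is shown on the + strand because it lies before the starts of both genes (54.8% G or C, RefSeq, GRCm38.p6).
*S100a1* to *S100a13*: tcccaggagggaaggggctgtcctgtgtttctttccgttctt
After subtraction of the group means, the Pearson r between both genes was 0.85 over the 16 mice.

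The 250 bases before the start were read for the 9 members with a RefSeq promoter entry (10 windows, since *S100a16* has 2 starts), and 5 motifs were searched on both strands. These were the AP-1 site TGANTCA, a STAT site, the cyclic AMP response element, a kappaB site and the core promoter box TATAAA. The AP-1 site was found in 2 of the 10 windows, while 6.75% of 32851 mouse promoters of the same length hold it. TATAAA was in 2 windows (*S100a4* and *S100a8*), against 12.4% of all promoters. The other 3 motifs were in 0 of the 10 windows, and 7.02%, 1.55% and 1.41% of all promoters hold the STAT site, the cyclic AMP response element and the kappaB site. *S100a11* had TGANTCA at 136 and at 38 bases before its start, and 1 of both *S100a16* windows had it at 192. The windows of *S100a4*, the most changed member, and of *S100a11* are shown with TATAAA and TGANTCA matches in capitals (+ strand, chr3:90603520-90603769 and chr3:93520246-93520495, RefSeq, GRCm38.p6).
*S100a4*: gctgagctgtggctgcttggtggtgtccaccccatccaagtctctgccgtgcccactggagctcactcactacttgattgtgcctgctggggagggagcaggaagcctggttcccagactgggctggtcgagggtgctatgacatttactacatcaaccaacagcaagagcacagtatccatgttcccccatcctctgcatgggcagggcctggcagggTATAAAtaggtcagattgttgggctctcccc
*S100a11*: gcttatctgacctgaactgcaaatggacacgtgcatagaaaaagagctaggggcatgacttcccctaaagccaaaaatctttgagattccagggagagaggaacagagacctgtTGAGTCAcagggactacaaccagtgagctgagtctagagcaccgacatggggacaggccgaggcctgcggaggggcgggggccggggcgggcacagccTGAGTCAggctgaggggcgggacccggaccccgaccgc
A match in these windows is a description of the letters, and binding of a factor was not measured.

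The genes most like each called member were taken by Pearson r over the 16 mice among the 13529 other genes whose mean log2(1 + FPKM) reached 1. For *S100a4* they were *Dhrs1* (r = 0.989) and *Glipr2* (0.989), and *S100a6* was closest to *Ctsl* (0.984). *S100a11* was closest to *Crym* (0.991) and *Tnfaip8l2* (0.9897). *S100a1* was closest to *Laptm4a* (0.983) and *S100a10* (0.980), *S100a10* to *Rpl10* (0.982) and *S100a1*, and *S100a13* to *S100a10* (0.972) and *Rpl22* (0.964). These values mostly describe the gap between MO and the other mice. After subtraction of the group means r was 0.82 for *Dhrs1*, 0.90 for *Glipr2*, 0.74 for *Ctsl*, 0.85 for *Crym* and 0.93 for *Laptm4a*, and between *S100a13* and *S100a10* it was 0.96. *S100b* was closest to *Pla2g16* (r = 0.970, and 0.95 after subtraction of the group means) and *Fnta* (0.956 and 0.93).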

How the data were processed

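Spinal cord RNA of 16 mice was measured, 1 TruSeq Stranded mRNA library per mouse. Per the study's methods and the submitters' processing notes, the authors used Trimmomatic to clean reads and TopHat to place them on mm10, computed FPKM with Cufflinks, removed unexpressed genes, took log2(1 + FPKM) and adjusted for batch with ComBat. Tool versions, the covariates of ComBat and the use of strand were not given in the sources used here. The deposited log2 values were used as they are. Of all values 915 were below 0 after the adjustment, none of them in the 10 genes.

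Each comparison was fitted on all 18167 genes and its 2 groups with limma 3.58.1 (lmFit, eBayes, R 4.3.3; two-sided, Benjamini-Hochberg over all genes), and the difference of age effects on all 16 mice. The fits were checked on simulated data. FPKM was recovered as 2 to the power of the value minus 1, with values below 0 set to 0. Read depth behind single genes is unknown, so P values rest on the spread between mice that remained after the batch adjustment. The main fits held no batch term, so these P values take no account of that adjustment and may be too small. Positions came from GENCODE M21 on GRCm38 by symbol (10 of 10 matched), and promoter windows from RefSeq on GRCm38.p6 (9 of 10). Tables were handled with Python 3.11.15, pandas 2.3.3, NumPy 2.4.6 and matplotlib 3.10.9.

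Named were all 10 members, the called or most abundant genes of lists of other S100 genes, receptors, annexins, partners, cargo and cell type markers, the called genes between the outermost S100 genes of chromosome 3, and 1 or 2 of the genes with the highest r for each called member and *S100b*. Members and lists were chosen with earlier results of these data known. Alternatives were batch 1 only, batch as a term, 1 fit of all groups, genes with a mean of at least 1, quantile normalization, an intensity trend, a pseudocount of 0.1, treat at 1.2-fold, FDR alone, a replicate block and each mouse left out. WO vs. MO within batch 2 was added after the data were seen.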

Additional observations from a re-analysis of the deposited data

Results flagged for a closer look

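The value of *S100a1* in MO2, 8.70, lay far from those of the other 4 MO mice, of which the nearest was at 8.37. Each member was looked at in WO and in MO, the groups of 5 mice, which made 20 sets of values. This was the 1 of the 20 sets in which a sample stood so far apart, and chance gives about 1 in 20. The sets share the same mice and are not independent.

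The change from young to old differed between mutant and wild-type mice in 6 genes, by the test of that difference over 16 mice. The difference (MO - MY) - (WO - WY) in log2 fold change was 0.96 for *S100a1* (limma FDR = 0.000709), 3.17 for *S100a4* (FDR = 5.88e-05), 2.70 for *S100a6* (FDR = 2.61e-05), 0.96 for *S100a10* (FDR = 0.00526), 1.78 for *S100a11* (FDR = 0.000106) and 0.93 for *S100a13* (FDR = 0.00343). Against a fold change of 1.2 (treat), *S100a10* was no longer called.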

How the results depend on the processing

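The 6 genes called in MY vs. MO and in WO vs. MO kept their direction under every alternative. In WO vs. MO the number of members called ran from 5 with batch 1 only, where *S100a13* was lost (FDR = 0.068), to 8 with the replicate block. For the difference of age effects it ran from 5 (treat, without *S100a10*) to 7 (without MO1, with *S100a16*). Directions turned only where values were small and uncalled, and the cause was not tested. *S100a8* in MY vs. MO was -0.0892 with quantile normalization and -0.11 with a pseudocount of 0.1, and ran from -0.24 to 0.42 as each mouse was left out. *S100a9* in MY vs. MO was 0.22 with batch 1 only, with batch as a term and with the replicate block, and ran from -0.29 to 0.16 as each mouse was left out. Under the same 3 settings WY vs. WO was 0.0389 for *S100a1*, 0.14 for *S100a10* and 0.0194 for *S100a11*. As each mouse was left out, *S100a10* ran from -0.13 to 0.0400 and *S100a11* from -0.27 to 0.00584 in WY vs. WO. In WY vs. MY, *S100a10* ran from -0.13 to 0.0258, *S100a11* from -0.0683 to 0.20 and *S100b* from -0.11 to 0.0207.

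Replicate numbers did not pair the mice, since correlations of same-numbered mice ran from -0.21 to 0.38. With the replicate block, 6 members were called in MY vs. MO and 8 in WO vs. MO, where *S100a8* (-0.93, FDR = 0.0374) and *S100a9* (-0.89, FDR = 0.0481) were called lower in addition, and no other call of a member changed. *S100a16* passed in WO vs. MO within batch 2 only (0.61, FDR = 0.0147, against 0.19 with batch 1 only), an alternative added after the data were seen. Groups of 3 to 5 mice limit the precision of *S100a8* and *S100a9*, and read numbers behind single genes were not analysed here.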
